A study of Homo sapiens with 18 samples.

Results

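The glycolysis and hypoxia-response genes are a set of 35 named genes, 24 of glucose uptake, glycolysis and its regulation and 11 of the transcriptional response to low oxygen. Members were chosen by gene symbol, and their rows were taken from a count table of 57736 rows. They were measured in PEO1, an established line of human high-grade serous ovarian cancer cells whose p53 the study names as mutant. PEO1 cells were transfected with sip53, an siRNA against p53, or with a control siRNA, siControl. Cells of both arms had been kept in hormone-depleted medium (phenol red-free, with charcoal-stripped serum) before estradiol (E2), the ligand of the estrogen receptor, was added at 10 nM. The groups were sip53 at 0, 2 and 8 h of E2 and siControl at 0, 2 and 8 h of E2, with 3 samples in each of the 6 groups, and the 0 h samples were untreated. The series addresses how mutant p53 bears on estrogen receptor activity. The sources name no second siRNA and no rescue, and the labels do not say whether replicates were grown separately, so p-values measure the spread between these samples.

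Glycolysis breaks glucose down to pyruvate in the cytosol. Glucose enters through facilitative transporters, is phosphorylated by hexokinases and passes the committed phosphofructokinase step, after which the lower enzymes yield ATP and pyruvate. Lactate dehydrogenase turns pyruvate into lactate and regenerates NAD+. When oxygen is low, prolyl hydroxylases no longer mark the transcription factor subunit HIF-1α for degradation, and the factor binds short elements with the core ACGTG near many glycolytic genes and near genes for angiogenesis, pH control and mitophagy. Tumour cells often run glycolysis with oxygen present, and wild-type and mutant p53 are both known to affect it.

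Libraries held 9225939 to 11307199 counts in the sip53 arm and 7542457 to 10132570 in the siControl arm. Libraries were read from transcript 3′ ends, so a level in CPM (counts scaled to equal library totals) does not grow with transcript length, splice forms that share an end (such as the PKM forms) cannot be told apart, and a level says nothing of protein or flux. The arms were compared at textbook p53 targets, because the targeted transcript is not reported here. The p53 of these cells is named as mutant, and whether it drives these genes was not tested. The ribosomal protein gene RPS27L had 17.2, 18.3 and 43.9 CPM (lowest, median and highest of 9 libraries) in sip53, against 80.7, 99.8 and 123 CPM in siControl. CDKN1A, the cell cycle inhibitor p21, had 9.40, 11.7 and 14.9 CPM in sip53, against 18.8, 22.2 and 26.7 CPM in siControl. The arms did not overlap for either gene, and the share of all genes with this separation is not given here. Of 12 markers of ovarian carcinoma epithelium, 5 rose and 0 fell in sip53 averaged over times (16.1% and 18.5% of all genes), and their summed level was 7150 to 8500 CPM in sip53 and 5810 to 6480 CPM in siControl. The fibroblast markers COL1A2, COL3A1, DCN and LUM and the leukocyte markers PTPRC and CD3E were at 0 in all 18 libraries. The fibroblast marker COL1A1 had 6.04 to 13.3 CPM in sip53 and 4.64 to 12.8 CPM in siControl and rose by 0.45 ± 0.15 averaged over times (log2 fold change; adjusted p 0.0194), and the leukocyte marker CD68 had 7.20 to 10.8 CPM in sip53 and 5.01 to 11.5 CPM in siControl and was not called. Sequencing depth, the epithelial markers and COL1A1 therefore differed with the arm, and their part in the knockdown results was not tested. In bulk samples, fewer cells of a kind and less RNA per cell cannot be told apart, and CPM is relative to the rest of the RNA.

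Glycolytic transcripts were higher in sip53 than in siControl, by small amounts and along most of the pathway. Of the 24 genes, 23 passed the filter on low counts; aldolase C (ALDOC) did not. Averaged over the 3 E2 times, 15 of the 23 rose and 1 fell at an adjusted p under 0.05 (edgeR quasi-likelihood test, Benjamini-Hochberg over all 15318 genes tested). Of all genes tested, 16.1% rose and 18.5% fell in the same comparison, 34.6% in either direction. The median log2 fold change was 0.28 over the 23 genes, against 0.01 over all genes, and 19 of the 23 had a positive value, against 50.9% of all genes. The genes that rose included at least 1 for every step between hexokinase and lactate dehydrogenase.

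LDHA, the lactate dehydrogenase subunit that favours lactate formation, had the smallest adjusted p of all members. In sip53 cells it measured 1440, 1510 and 1570 CPM at 0 h, 1630, 1640 and 1770 CPM at 2 h and 1570, 1460 and 1540 CPM at 8 h. In siControl cells it measured 1120, 930 and 1090 CPM at 0 h, 1310, 1190 and 1140 CPM at 2 h and 1060, 1030 and 1020 CPM at 8 h. All 9 sip53 libraries lay above all 9 siControl libraries. The share of all genes with this separation is not given here. Within a time, every sip53 library was above every siControl library for 12.6% of all genes at 0 h, 15.1% at 2 h and 14.6% at 8 h. Its log2 fold change, averaged over times, was 0.52 ± 0.05 (SE; adjusted p 8.84e-08). LDHA was also called at each time, with 0.52 ± 0.08 before E2 (adjusted p 7.97e-04), 0.47 ± 0.08 after 2 h (0.00126) and 0.56 ± 0.08 after 8 h (3.88e-04), and each of these calls was kept in 6 of 6 fits that left out 1 library.

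PKM, the pyruvate kinase that makes pyruvate and ATP in the last glycolytic step, had 574, 687 and 686 CPM at 0 h, 610, 620 and 826 CPM at 2 h and 627, 530 and 519 CPM at 8 h in sip53. The siControl libraries had 473, 485 and 447 CPM at 0 h, 473, 453 and 408 CPM at 2 h and 460, 343 and 435 CPM at 8 h. At each time the sip53 libraries were all above the siControl libraries, and PKM rose by 0.51 ± 0.07 averaged over times (log2 fold change, adjusted p 1.08e-05). GPI, which isomerises glucose 6-phosphate, had 246, 267 and 271 CPM at 0 h, 246, 248 and 285 CPM at 2 h and 219, 210 and 203 CPM at 8 h in sip53, against 213, 196 and 183 CPM, 234, 183 and 176 CPM, and 153, 147 and 167 CPM at the same times in siControl. The arms did not overlap within any time, and GPI rose by 0.41 ± 0.06 (adjusted p 2.08e-05). Of all genes tested, 12.6% at 0 h, 15.1% at 2 h and 14.6% at 8 h had every sip53 library above every siControl library. PFKL, the liver-type subunit of phosphofructokinase, had 45.7, 45.4 and 39.7 CPM at 0 h, 39.5, 40.7 and 38.2 CPM at 2 h and 52.4, 34.3 and 45.0 CPM at 8 h in sip53, against 23.2, 32.2 and 31.0 CPM, 32.9, 31.8 and 28.4 CPM, and 30.5, 27.4 and 35.6 CPM in siControl. PFKL rose by 0.48 ± 0.09 (adjusted p 1.77e-04), and the arms overlapped at 8 h alone, where sip53 replicate 2 lay below siControl replicate 3.

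GAPDH, which makes the first NADH of the pathway and was the most abundant member, had 6310, 6420 and 6610 CPM at 0 h, 6390, 6710 and 7230 CPM at 2 h and 6210, 6160 and 5860 CPM at 8 h in sip53. In siControl it had 5700, 5230 and 4800 CPM at 0 h, 6130, 5170 and 4780 CPM at 2 h and 5270, 5160 and 4980 CPM at 8 h. The arms did not overlap within any time, although siControl replicate 1 at 2 h came above the lowest sip53 library at 8 h. GAPDH rose by 0.29 ± 0.05 (adjusted p 1.07e-04), so this common reference transcript differed between the arms. The other lower enzymes that rose were triosephosphate isomerase TPI1 (0.28 ± 0.06), phosphoglycerate kinase PGK1 (0.31 ± 0.06), phosphoglycerate mutase PGAM1 (0.30 ± 0.06) and enolase ENO1 (0.21 ± 0.06). Aldolase ALDOA (0.29 ± 0.05), hexokinase HK1 (0.29 ± 0.06), the muscle-type phosphofructokinase PFKM (0.35 ± 0.09) and the lactate dehydrogenase subunit LDHB (0.24 ± 0.07) rose as well, and the adjusted p of these 8 genes lay between 2.44e-04 and 0.00773. In the fit without the trend on transcript length and GC content, the ALDOA value was 0.16 and the GAPDH value 0.19, both still called. PFKFB2, a bifunctional enzyme that sets the level of the phosphofructokinase activator fructose 2,6-bisphosphate, rose by 0.39 ± 0.09 (adjusted p 0.00181).

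The glucose transporters went opposite ways. SLC2A1 (GLUT1) rose by 0.23 ± 0.07 averaged over times (adjusted p 0.00996), and SLC2A3 (GLUT3) fell, with a log2 fold change of -0.45 ± 0.14 (adjusted p 0.0152). SLC2A3 was low, at 3.32 to 9.29 CPM in sip53 and 8.36 to 12.4 CPM in siControl. In the same fit without the length and GC trend, the SLC2A1 value was 0.12 and no longer called (adjusted p 0.162). The 7 glycolytic members that did not pass the test were hexokinase HK2 (0.14 ± 0.09), the platelet-type phosphofructokinase PFKP (0.01 ± 0.08), PFKFB3 (0.13 ± 0.10), PFKFB4 (-0.49 ± 0.36), the neuronal enolase ENO2 (0.16 ± 0.10), the pyruvate dehydrogenase kinase PDK1 (-0.25 ± 0.14) and the lactate exporter SLC16A3 (-0.06 ± 0.10). Their adjusted p ran from 0.166 for PDK1 to 0.962 for PFKP.

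Calls were most frequent among the abundant glycolytic genes. All 11 glycolytic members with a mean level of 100 CPM or more rose, with a median log2 fold change of 0.29. Among all 2176 genes at that level, 34.6% rose, 24.4% fell and the median was 0.06. Between 10 and 100 CPM, 4 of 9 glycolytic members rose, where 20.8% of 7039 genes did. Under 10 CPM, 0 of 3 rose and 1, SLC2A3, fell.

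At single times fewer members passed the test. At 0 h, before E2, 8 of 23 glycolytic genes rose and 0 fell, against 3.98% of all genes higher and 5.14% lower (9.12% in all). These were SLC2A1 (0.42 ± 0.12), HK1 (0.39 ± 0.11), GPI (0.40 ± 0.10), PFKL (0.60 ± 0.15), ALDOA (0.29 ± 0.09), GAPDH (0.30 ± 0.09), PKM (0.47 ± 0.12) and LDHA. At 2 h, 11 rose and 0 fell, against 4.42% of all genes higher and 7.79% lower (12.2% in all). LDHA, PKM (0.62 ± 0.12), GPI, GAPDH and ALDOA were called at 2 h too, and TPI1 (0.39 ± 0.11), PGK1 (0.35 ± 0.11), PGAM1 (0.32 ± 0.11), ENO1 (0.31 ± 0.10), PFKFB2 (0.47 ± 0.15) and PFKFB3 (0.63 ± 0.17) were called as well. At 8 h, 4 rose (GPI, PFKL, PKM and LDHA) and 0 fell, against 2.81% of all genes higher and 6.14% lower (8.96% in all). The median log2 fold change of the 23 genes was 0.29 at 0 h, 0.33 at 2 h and 0.21 at 8 h, against -0.00, 0.00 and 0.01 over all genes.

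**Figure D1:**
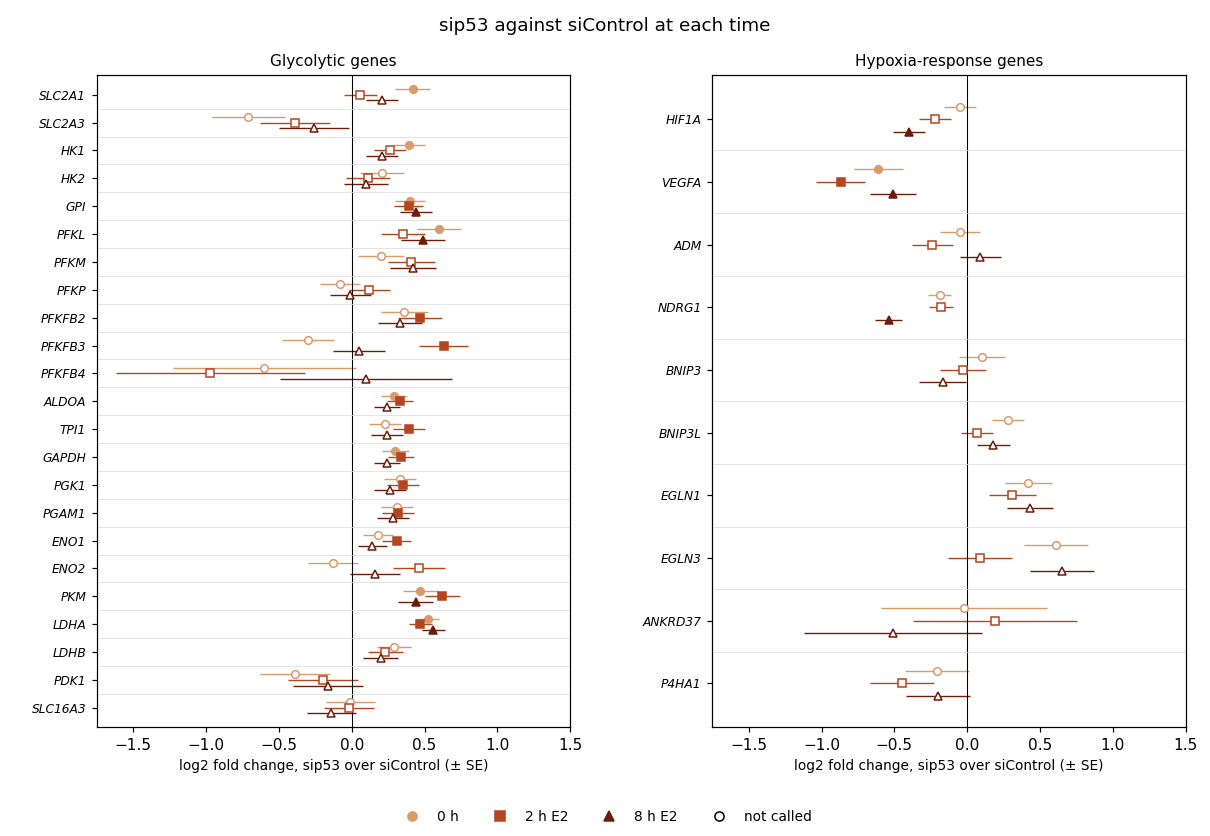
Log2 fold change of each tested member, sip53 over siControl, at 0, 2 and 8 h of E2 (horizontal axis, bars ± SE), glycolytic genes left and hypoxia-response genes right, filled where the adjusted p was under 0.05. LDHA (0.52, 0.47 and 0.56), PKM and GPI lie to the right and filled at all 3 times, and VEGFA (-0.61, -0.87 and -0.51) lies to the left at all 3.

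Single libraries moved these counts, and those over all genes with them. The 9 members called at 0 h, glycolytic and hypoxia-response together, became 3 without sip53 replicate 2, 2 without sip53 replicate 3, 5 without siControl replicate 2 and 2 without siControl replicate 3, while the 1397 genes called in all became 511, 289, 732 and 610 in the same fits. The 12 called at 2 h became 6 without sip53 replicate 2 and 4 without sip53 replicate 3, siControl replicate 2 or siControl replicate 3, while the 1871 genes called in all became 1076, 821, 862 and 1190. The 7 called at 8 h became 3 without sip53 replicate 1 or siControl replicate 1 and 2 without siControl replicate 2, while the 1372 genes called in all became 789, 505 and 703. In the fit without the length and GC trend, the calls of SLC2A1, ALDOA and GAPDH at 0 h, of GPI, ALDOA, TPI1, GAPDH, PGAM1 and ENO1 at 2 h and of GPI, PFKL and PKM at 8 h were lost, at log2 fold changes of 0.17 to 0.39, and 7, 6 and 2 glycolytic genes were called higher and 0 lower at 0, 2 and 8 h. The share of all genes called in that fit is not given here, so these counts are not set against it. That fit also turned the balance of all calls. Higher calls were then 62.0% of all called genes at 0 h, 54.0% at 2 h and 49.8% at 8 h, against 43.7%, 36.2% and 31.4% with the trend kept, and 57.8% against 46.6% over the 3 times. Upper-quartile scaling gave 42.4% at 8 h. The rise of PFKFB3 at 2 h in sip53 over siControl was kept in 3 of 6 fits that left out 1 library. The count of 22 called over the 3 times stayed between 21 and 23 with any of the 18 libraries left out, and each of the 15 glycolytic rises was kept in 18 of 18 such fits. Within siControl, replicate 1 had the highest level of its group for 11 of the 15 genes at 0 h and 13 of the 15 at 2 h, where such a library was highest for 35.6% and 37.4% of all genes. The median deviation of the 23 glycolytic genes from their mean over libraries was 0.10 (log2) in that 2 h library, against -0.14 and -0.18 in replicates 2 and 3 of the group and 0.01 to 0.22 in the sip53 libraries. Without it, 13 members were called at 2 h, and without siControl replicate 1 at 0 h, 13 were called at 0 h. The counts over all genes in those fits are not given here, so these counts are not read as particular to the members.

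**Figure D2:**
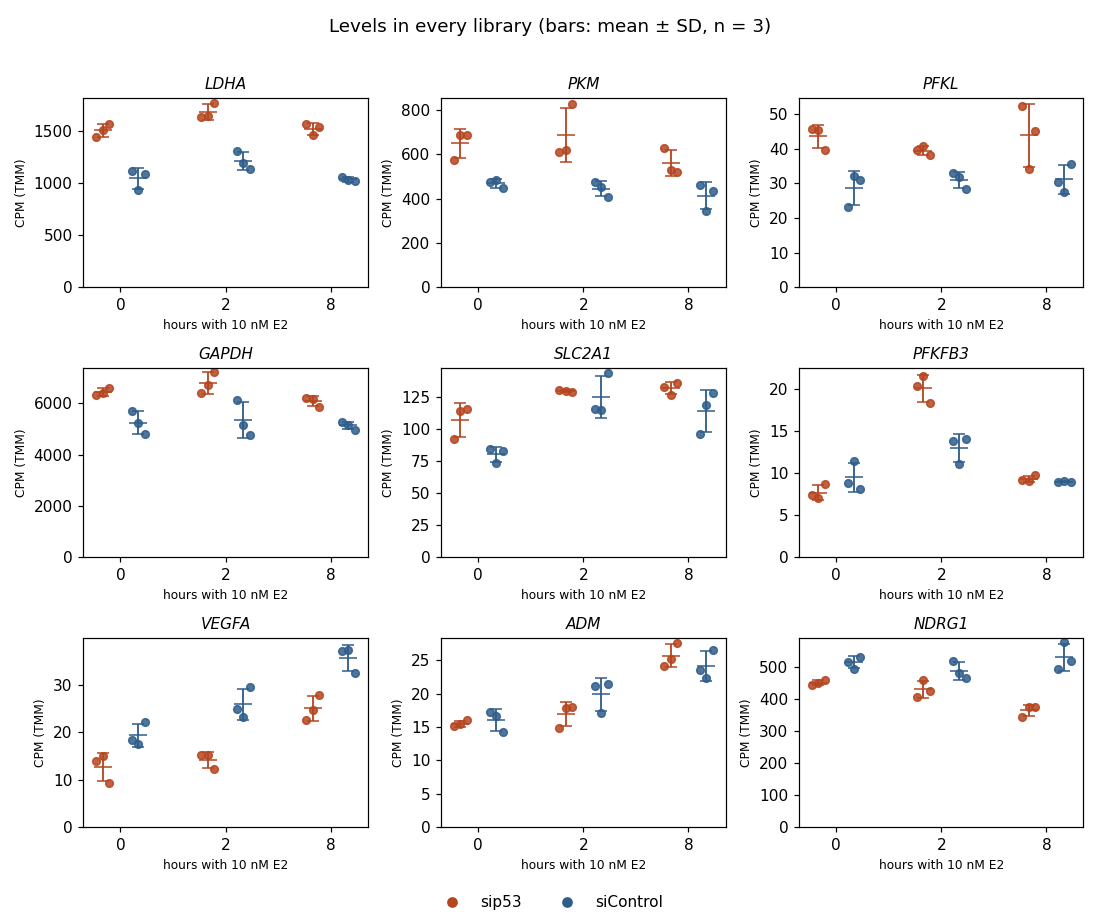
Level of 9 members in each library (vertical axis, TMM-scaled CPM from 0) for sip53, left of each pair, and siControl at 0, 2 and 8 h of E2, with 1 point per library and bars for the mean ± SD (n = 3). LDHA and PKM are higher in every sip53 library than in any siControl library of the same time, and VEGFA and NDRG1 are lower.

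The balance between related genes was described by the log2 ratio of their CPM values within each library. The 6 pairs were chosen with the results above known, so the differences are given with no test. The LDHA to LDHB ratio was higher in sip53 by 0.27 ± 0.06 (log2, SE), although both genes rose. Its mean was 0.92, 1.01 and 1.04 at 0, 2 and 8 h in sip53, against 0.69, 0.77 and 0.69 in siControl. The SLC2A1 to SLC2A3 ratio was higher by 0.71 ± 0.16 and the PFKL to PFKP ratio by 0.47 ± 0.14. PFKL stood near the level of PFKP in sip53 (mean log2 ratio -0.08, -0.29 and -0.12 at the 3 times), and lower than PFKP in siControl (-0.77, -0.52 and -0.59). The difference was 0.14 ± 0.07 for HK1 to HK2, 0.20 ± 0.09 for BNIP3L to BNIP3 and 0.03 ± 0.14 for ENO1 to ENO2.

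**Figure D3:**
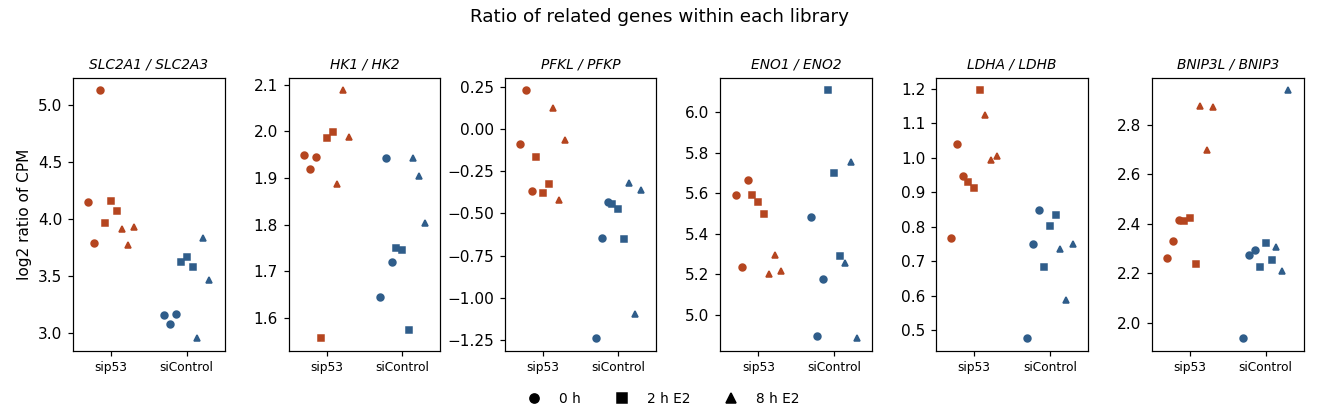
Log2 ratio of the CPM of 2 related genes in each library (vertical axis, with its own range per panel), sip53 left of siControl, with symbols for the E2 times. The LDHA to LDHB ratio averages 0.92 to 1.04 in sip53 and 0.69 to 0.77 in siControl, and the ENO1 to ENO2 ratio differs between arms by 0.03 ± 0.14.

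The promoters of several members hold the core to which hypoxia-inducible factors are known to bind. In RefSeq windows of 250 bases before the annotated start (GRCh38.p14), ACGTG, searched on both strands and so also as CACGT, was present for 19 of the 30 members with a window (63.3%), 14 of 22 glycolytic (63.6%) and 5 of 8 hypoxia-response genes (62.5%). Of all 27305 genes with a window 21.7% held it, and a gene with several starts was counted where any of its windows did. Several starts give more chances of a match, and some members had many windows. HK1 had 7 windows and no match, and PFKM had 7 windows and is counted as holding it. Of all 35116 windows 18.5% held it, and a share by window was not computed for the members. A match describes letters in a window and is neither a site in use nor a cause, and CACGTG also holds the E-box core, so that 1 CACGTG counts as 2 matches. The windows of LDHA (chr11:18394313-18394562, plus strand, 5 matches) and PGK1 (chrX:78103998-78104247, plus strand, 2 matches) are shown because both genes rose with the knockdown. That of GAPDH (chr12:6535014-6535263, plus strand, 2 matches) is shown as the most abundant member, and that of PFKFB3 (chr10:6202682-6202931, plus strand, 2 matches) because it changed with E2. For LDHA and PFKFB3 the window with the most matches is shown, and the other window of each held 0 matches. Capitals mark ACGTG and CACGT.
LDHA: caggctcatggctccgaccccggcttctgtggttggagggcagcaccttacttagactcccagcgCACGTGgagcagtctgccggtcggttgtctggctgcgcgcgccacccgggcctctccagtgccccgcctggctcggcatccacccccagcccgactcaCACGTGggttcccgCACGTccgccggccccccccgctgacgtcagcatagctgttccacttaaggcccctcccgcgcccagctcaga
PGK1: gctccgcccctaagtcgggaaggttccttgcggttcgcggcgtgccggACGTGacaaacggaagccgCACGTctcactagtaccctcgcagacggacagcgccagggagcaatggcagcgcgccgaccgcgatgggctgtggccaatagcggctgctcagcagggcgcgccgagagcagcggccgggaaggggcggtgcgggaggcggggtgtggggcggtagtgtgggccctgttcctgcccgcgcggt
GAPDH: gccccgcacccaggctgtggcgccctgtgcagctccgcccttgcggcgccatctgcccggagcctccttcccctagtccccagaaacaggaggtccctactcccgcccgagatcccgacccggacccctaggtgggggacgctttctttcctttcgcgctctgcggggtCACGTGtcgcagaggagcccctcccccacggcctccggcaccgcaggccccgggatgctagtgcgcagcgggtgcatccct
PFKFB3: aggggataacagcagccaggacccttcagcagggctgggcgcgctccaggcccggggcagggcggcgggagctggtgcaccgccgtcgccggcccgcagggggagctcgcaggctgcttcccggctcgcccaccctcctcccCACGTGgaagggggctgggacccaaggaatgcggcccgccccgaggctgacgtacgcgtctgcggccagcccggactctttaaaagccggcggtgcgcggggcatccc
LDHA, with the smallest adjusted p among the members, has 5 matches here, while PKM and PFKL, which rose about as much, have none in their windows. Among glycolytic genes, the other members that hold the motif were ALDOA, ALDOC, GPI, HK2, TPI1, PFKM, PFKP, ENO2, PDK1 and SLC16A3. Among hypoxia-response genes they were ANKRD37, BNIP3, CA9, EGLN1 and P4HA1. The members VEGFA, NDRG1, BNIP3L, SLC2A3 and PFKFB2 had no window and were not searched. Some genes that hold it rose, while HK2, PFKP, PFKFB3, ENO2, PDK1 and SLC16A3 hold it and were not called averaged over times. ENO1, HK1, LDHB, PGAM1 and SLC2A1 rose and have none in their windows.

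The hypoxia-response genes moved in both directions. Of 11 genes, 10 passed the filter; CA9, the membrane carbonic anhydrase that is a common hypoxia marker, did not exceed 0.977 CPM in any library. Averaged over times, 3 rose and 3 fell in sip53, against 16.1% and 18.5% of all genes, with a median log2 fold change of -0.09. VEGFA (the angiogenic growth factor), NDRG1 (a stress-induced differentiation gene) and HIF1A (the oxygen-regulated HIF-1 subunit) fell, and EGLN1, EGLN3 and BNIP3L rose.

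VEGFA lies at chr6:43770184-43786487 (GRCh38, plus strand). It had 13.9, 14.9 and 9.23 CPM at 0 h, 15.2, 15.1 and 12.3 CPM at 2 h and 22.5, 24.7 and 27.8 CPM at 8 h in sip53. The siControl libraries had 18.4, 17.5 and 22.1 CPM at 0 h, 24.9, 23.1 and 29.5 CPM at 2 h and 37.0, 37.2 and 32.4 CPM at 8 h. All sip53 libraries were below all siControl libraries of the same time, and levels were highest at 8 h in both arms. Of all genes tested, 11.9% at 0 h, 18.1% at 2 h and 14.9% at 8 h had every sip53 library below every siControl library. The log2 fold change was -0.66 ± 0.10 averaged over times (adjusted p 1.72e-05), -0.61 ± 0.17 at 0 h (0.0292), -0.87 ± 0.17 at 2 h (0.00205) and, at 8 h, -0.51 ± 0.16 (0.0483). The 2 h call was kept in 6 of 6 fits that left out 1 library. The 0 h call was lost without sip53 replicate 3 (adjusted p 0.189) and without siControl replicate 3 (0.125), and the 8 h call was lost in all 6 such fits (adjusted p 0.0567 to 0.159).

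NDRG1 had 446, 450 and 462 CPM at 0 h, 407, 461 and 426 CPM at 2 h and 344, 377 and 375 CPM at 8 h in sip53, against 518, 496 and 534 CPM at 0 h, 519, 482 and 466 CPM at 2 h and 495, 579 and 521 CPM at 8 h in siControl. The sip53 libraries were lower at every time and furthest from siControl at 8 h. NDRG1 fell, with a log2 fold change of -0.30 ± 0.05 averaged over times (adjusted p 5.45e-05) and -0.54 ± 0.09 at 8 h (4.93e-04, kept in 6 of 6 fits that left out 1 library). HIF1A had 71.4, 56.4 and 68.2 CPM at 0 h, 66.3, 65.4 and 62.0 CPM at 2 h and 50.1, 48.5 and 42.8 CPM at 8 h in sip53. The siControl libraries had 72.4, 62.7 and 67.3 CPM at 0 h, 77.9, 79.2 and 68.3 CPM at 2 h and 67.5, 64.6 and 55.3 CPM at 8 h. The arms overlapped at 0 h, and sip53 lay below siControl at 2 and 8 h. HIF1A fell by 0.22 ± 0.06 averaged over times on the log2 scale (adjusted p 0.00990), but the fit without the length and GC trend gave -0.03 (adjusted p 0.755). At 8 h it was -0.40 ± 0.11 (adjusted p 0.0278), kept in 3 of 6 fits that left out 1 library and lost without the length and GC trend (-0.23, adjusted p 0.209).

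The HIF prolyl hydroxylases rose. EGLN1 (PHD2), the main oxygen sensor, rose by 0.39 ± 0.09 averaged over times (adjusted p 0.00261), with group means of 19.7 ± 2.40, 20.7 ± 0.394 and 22.4 ± 2.38 CPM at 0, 2 and 8 h in sip53, against 14.7 ± 3.23, 16.6 ± 2.20 and 16.6 ± 1.46 CPM in siControl (SD, n = 3). Without the length and GC trend, the EGLN1 value was 0.64 and that of BNIP3L, below, 0.28. EGLN3 (PHD3), itself induced by hypoxia, rose by 0.45 ± 0.13 (adjusted p 0.00737). Its means were 11.8 ± 2.08, 8.28 ± 0.364 and 10.5 ± 2.90 CPM in sip53, against 7.74 ± 0.369, 7.78 ± 1.04 and 6.66 ± 1.11 CPM in siControl (SD, n = 3), so the arms lay closest at 2 h. BNIP3L, a mitophagy receptor, rose by 0.18 ± 0.06 (adjusted p 0.0278), a call lost in 5 of 18 fits that left out 1 library (without sip53 0 h replicate 3, sip53 2 h replicates 1 and 2, siControl 0 h replicate 2 or siControl 8 h replicate 1). The vasodilator peptide gene ADM (-0.07 ± 0.08), the mitophagy receptor BNIP3 (-0.04 ± 0.09), ANKRD37 (-0.11 ± 0.33) and the collagen prolyl hydroxylase P4HA1 (-0.29 ± 0.13) did not pass the test. BNIP3 is uncertain, since its 42 pseudogene rows held 29.7% of the counts summed over gene and copies.

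At single times the hypoxia-response genes called were VEGFA at 0 and 2 h, and VEGFA, NDRG1 and HIF1A at 8 h, all lower in sip53. That is 1, 1 and 3 of 10 genes, against 5.14%, 7.79% and 6.14% of all genes lower at 0, 2 and 8 h. None of these calls changed sign under any alternative. The balance of higher and lower calls among the 10 genes depended on the setting. In the fit without the length and GC trend, 3 of the 10 were called at 0 h (2 of them higher in sip53), 2 at 2 h (1 of them higher) and 4 at 8 h (2 of them higher). Upper-quartile scaling and the replicate block each gave 1 higher and 2 lower at 8 h. The shares of all genes called in these fits are not given here, so the counts are not set against them.

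Few members changed with E2. Within an arm the 2 h and 8 h comparisons share the 0 h libraries. In both arms, each E2 comparison also shares libraries with the knockdown comparisons at its times. At 2 h in sip53, 1 of 33 members rose and 0 fell (all genes 0.268% and 0.0392%, 0.307% in all), and at 8 h 2 rose and 1 fell (1.55% and 1.18%, 2.74% in all). In siControl, 1 rose and 0 fell at 2 h (0.228% and 0), and 3 rose and 0 fell at 8 h (1.78% and 0.823%, 2.60% in all). Between 2 and 8 h, 2 members rose and 2 fell in sip53 (all genes 0.823% and 0.555%, 1.38% in all): VEGFA (0.82 ± 0.17) and ADM (0.60 ± 0.14) rose, and PFKFB3 (-1.10 ± 0.17) and HIF1A (-0.45 ± 0.11) fell. That count of 4 was 1 or 2 with any of the 6 libraries left out. In siControl 0 members were called between 2 and 8 h by edgeR and 0 by DESeq2 (all genes by edgeR 0.646% higher and 0.379% lower, 1.02% in all), and 6 of 33 had an unadjusted p under 0.05, against 12.1% of all genes. Among the 23 glycolytic genes, PFKFB3 in sip53 and SLC2A1 in siControl were called against 0 h.

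PFKFB3, the member of its family with the highest kinase activity and a driver of glycolytic flux, lies at chr10:6144934-6254644 (GRCh38, plus strand). In sip53 it had 20.4, 21.6 and 18.4 CPM at 2 h, against 7.39, 7.06 and 8.71 CPM at 0 h, and it had 9.24, 9.10 and 9.78 CPM at 8 h. In siControl it had 13.9, 11.1 and 14.1 CPM at 2 h, against 8.91, 11.5 and 8.19 CPM at 0 h, and it had 8.93, 9.14 and 9.01 CPM at 8 h. All 3 sip53 libraries at 2 h were above all other 15 libraries, and 1 siControl library at 2 h lay below the highest at 0 h. PFKFB3 rose in sip53 by 1.38 ± 0.17 at 2 h (log2 fold change; adjusted p 4.77e-05) and was lower at 8 h than at 2 h (adjusted p 7.40e-04), both kept in 6 of 6 fits that left out 1 library. In siControl the 2 h value was 0.45 ± 0.17 and not called (adjusted p 0.336). The difference between the arms in the 2 h response was 0.93 ± 0.24, with an unadjusted p of 9.48e-04 in the edgeR fit and an adjusted p of 1.00.

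VEGFA and ADM rose at 8 h of E2 in both arms. From the VEGFA levels given above, the log2 fold change at 8 h against 0 h was 0.98 ± 0.17 in sip53 (adjusted p 0.00112) and 0.88 ± 0.16 in siControl (0.00336), each kept in 6 of 6 fits that left out 1 library. The difference between arms was 0.10 ± 0.23 (adjusted p 0.999), and a p that misses the threshold does not show that the responses were alike. ADM had 24.2, 25.2 and 27.6 CPM at 8 h in sip53, against 15.1, 15.4 and 16.0 CPM at 0 h, with a mean of 16.9 ± 1.73 CPM at 2 h (SD, n = 3). The siControl libraries had 23.5, 22.3 and 26.6 CPM at 8 h, against 17.3, 16.7 and 14.2 CPM at 0 h, and 21.2, 17.1 and 21.5 CPM at 2 h. In both arms the 8 h libraries were above the 0 h libraries. ADM rose by 0.73 ± 0.14 in sip53 (adjusted p 0.00373, kept in 6 of 6 fits) and by 0.59 ± 0.14 in siControl (0.0240, kept in 2 of 6).

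SLC2A1 was the member called with E2 in siControl at both times. In siControl it had 116, 115 and 144 CPM at 2 h and 96.4, 119 and 128 CPM at 8 h, against 84.4, 73.9 and 82.7 CPM at 0 h. In sip53 it had 131, 130 and 129 CPM at 2 h and 133, 127 and 136 CPM at 8 h, against 92.3, 114 and 116 CPM at 0 h. In both arms the E2 libraries were above the 0 h libraries. The siControl log2 fold changes were 0.64 ± 0.12 at 2 h (adjusted p 0.0128, kept in 4 of 6 fits that left out 1 library) and 0.51 ± 0.12 at 8 h (0.0175, kept in 3 of 6). In sip53 they were 0.28 ± 0.11 (adjusted p 0.563) and 0.30 ± 0.11 (0.199). The difference between the arms was -0.36 ± 0.16 at 2 h (adjusted p 1.00) and -0.21 ± 0.16 at 8 h (0.999). HIF1A fell in sip53 at 8 h, with a log2 fold change of -0.47 ± 0.11 (adjusted p 0.0221, kept in 3 of 6 fits), and had -0.11 ± 0.11 in siControl (adjusted p 0.666).

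**Figure D4:**
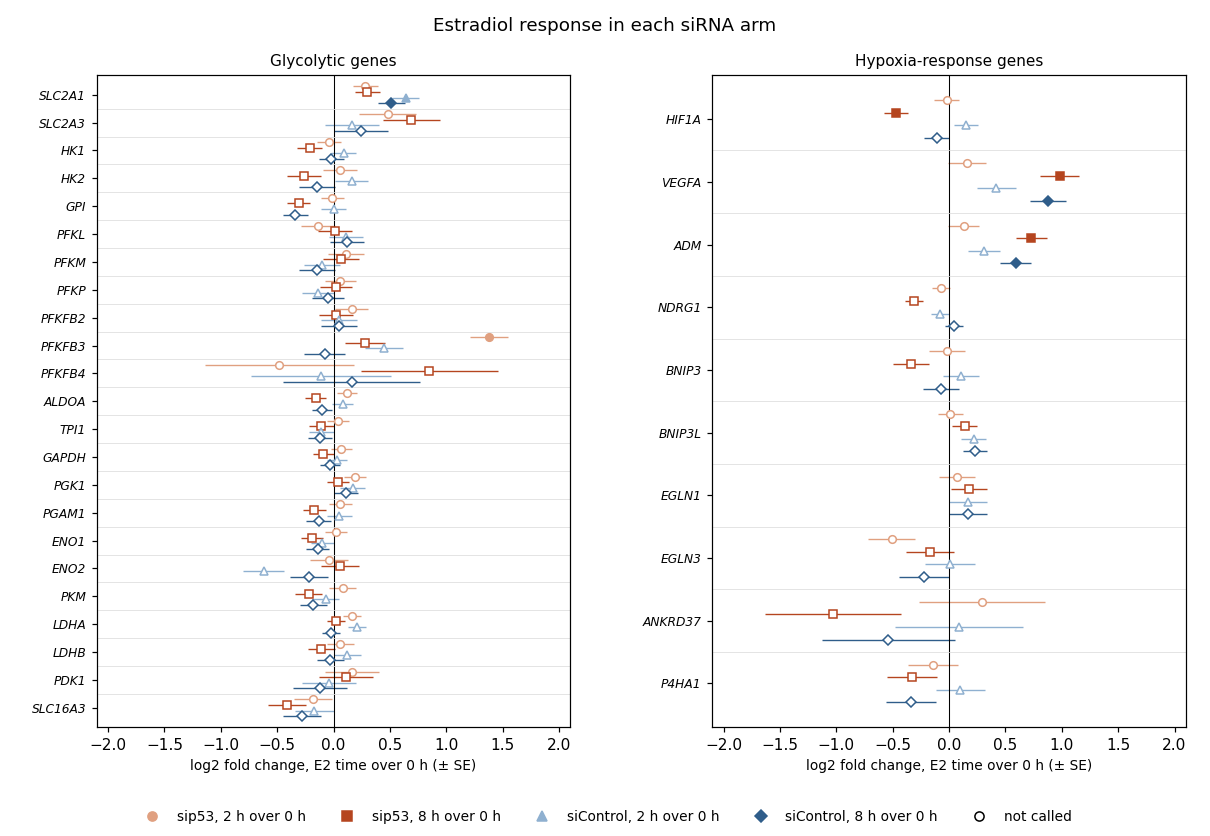
Log2 fold change of the tested members at 2 and 8 h of E2 over 0 h (horizontal axis, bars ± SE) in sip53 and in siControl, filled where the adjusted p was under 0.05. PFKFB3 at 2 h stands out in sip53 (1.38, against 0.45 in siControl), and VEGFA at 8 h is raised in both arms (0.98 in sip53 and 0.88 in siControl).

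Across all genes tested, no gene's E2 response differed between the arms at an adjusted p under 0.05 (edgeR, 0 of 15318 at 2 h and at 8 h, against 1 and 2 genes by DESeq2, none of them a member). At an unadjusted p under 0.05, 2.94% of all genes differed at 2 h and 3.81% at 8 h. Among the 33 members these were 3 at 2 h (PFKFB3, ENO2 and SLC2A1) and 2 at 8 h. NDRG1 had a difference of -0.35 ± 0.12 at 8 h (unadjusted p 0.00749 in the edgeR fit, adjusted p 0.999) and HIF1A of -0.36 ± 0.16 (0.0353 and 0.999).

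In the lists of related genes, counts are again read against 16.1% of all genes higher and 18.5% lower. Of the pentose phosphate pathway, averaged over times, transketolase TKT (0.35 ± 0.05, adjusted p 3.27e-05), PGD (0.36 ± 0.07, 2.65e-04) and transaldolase TALDO1 (0.26 ± 0.06, 0.00190) rose in sip53. Of 34 other genes of glucose, pyruvate and lactate handling 26 were tested, and averaged over times 10 rose and 3 fell, with a median of 0.19. PDK2, a kinase that holds back pyruvate dehydrogenase, rose by 0.59 ± 0.10 (adjusted p 1.37e-04), and the mitochondrial pyruvate carrier gene MPC2 rose by 0.37 ± 0.08 (0.00166). The phosphoglucomutase PGM1 (0.34 ± 0.08, 0.00172) and DLD, a subunit of pyruvate dehydrogenase (0.28 ± 0.06, 0.00177), rose as well. The pyruvate dehydrogenase phosphatase PDP2 (-1.01 ± 0.26, adjusted p 0.00457), the monocarboxylate transporter SLC16A7 (-0.77 ± 0.16, 6.21e-04) and HKDC1 (-0.35 ± 0.09, 0.00331) fell. PDP2 was low, at 0.726 to 2.20 CPM in sip53 and 1.67 to 5.13 CPM in siControl.

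Among 14 genes of oxygen sensing 13 were tested, and 4 rose and 3 fell, with a median of 0.08. CITED2, which competes with HIF-1α for its coactivators, rose by 0.73 ± 0.09 (adjusted p 3.55e-06), and so did ELOB (0.37 ± 0.06) and RBX1 (0.20 ± 0.06), subunits of the VHL ubiquitin ligase, and EGLN2 (0.26 ± 0.08). ARNT, the partner of HIF-1α (-0.33 ± 0.10), the ligase scaffold CUL2 (-0.36 ± 0.14) and the coactivator CREBBP (-0.21 ± 0.06) fell. Of 38 other hypoxia-induced genes 35 were tested, and 7 rose and 3 fell, with a median of 0.12. PLOD1, a collagen lysyl hydroxylase (0.52 ± 0.10, adjusted p 1.95e-04), the transferrin receptor TFRC (0.37 ± 0.05, 2.10e-05), the ephrin ligand EFNA1 (0.38 ± 0.06, 7.53e-05) and FAM162A (0.38 ± 0.07, 2.58e-04) were among those that rose. RORA, a nuclear receptor (-0.70 ± 0.14, 6.37e-04), WSB1 (-0.24 ± 0.06, 0.00156) and the histone demethylase KDM4B (-0.21 ± 0.07, 0.0279) fell.

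With E2 at 8 h, 2 of the 35 other hypoxia-induced genes rose and 1 fell in sip53 (1.55% and 1.18% of all genes), and 4 rose and 0 fell in siControl (1.78% and 0.823% of all genes). DDIT4, an mTORC1 inhibitor, was called in both arms, with 1.43 ± 0.13 in sip53 (adjusted p 3.29e-07) and 1.57 ± 0.13 in siControl (1.38e-07). HILPDA, a lipid droplet protein (0.49 ± 0.11, adjusted p 0.0136), rose and WSB1 (-0.44 ± 0.10, 0.0109) fell in sip53. EFNA1 (0.48 ± 0.11, adjusted p 0.0175), ERRFI1 (0.84 ± 0.21, 0.0333) and CA12 (0.0203) rose in siControl. Of the 13 oxygen-sensing genes, VHL, the substrate receptor of the HIF ubiquitin ligase (-0.40 ± 0.09, adjusted p 0.0185), and CREBBP (-0.37 ± 0.10, 0.0407) fell in sip53 at 8 h, where 1.18% of all genes did.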

How the data were processed

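The 18 libraries were 3′ tag libraries (QuantSeq 3′ mRNA-Seq FWD), per the labels' protocols. The deposited table holds expected counts per gene from RSEM 1.3.3, made by the authors. Bowtie2, cutadapt, MultiQC and build hg19 are named per the submitters' processing notes, and the annotation and the strand setting are not given in the sources used here. Without strand, reads of an opposite-strand gene cannot be separated, and 21 of the 35 members have such a gene in GENCODE v29. The deposited values were already whole, so rounding moved none. Rows were named by their transcripts through GENCODE v29 (GRCh38), and coordinates are on GRCh38 while counts were made on hg19. Of 57736 rows 52673 matched a single gene, 267 a majority and 4642 had no transcript there. Unnamed rows held 0.635% of counts. For PDP2 and ENO1 a further low row was not used (2 rows).

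Genes were kept with edgeR 4.0.16 filterByExpr (minimum count 10; R 4.3.3), scaled by TMM and fitted with the quasi-likelihood test over all 6 groups, with adjustment over 15318 genes. The biological coefficient of variation was 15.2%. The mean-of-times contrast averages the knockdown effect at 0, 2 and 8 h. CPM are TMM-scaled. Every member is named in the text, and of each further list up to 4 called genes per direction with the smallest adjusted p. The scripts were tested on simulated data. The alternatives were DESeq2 1.42.0 (its size factors and its Wald test), upper-quartile scaling, no filter, the 2 groups alone, the replicate number as a block, each library left out and, chosen after seeing the data, pseudogene copies summed and the length and GC trend removed (97.6% of genes had both values). Members and lists were chosen with earlier results of these data known. The targeted transcript and some other results are not reported here.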

Additional observations from a re-analysis of the deposited data

How the results depend on the processing

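None of the 62 single calls changed sign under any alternative. Counts of members were compared by size alone. The balance of higher and lower hypoxia-response calls at single times depended on the setting, as given above. The count of 22 members called over the 3 times stayed within 21 to 23 with 1 library left out and did not move by more than 1.5 times under any setting. Among counts of members called, 91 of 95 values from the other settings and 75 of 96 with 1 library left out were within 1.5 times of the reported count. With 1 library left out, the count ran from 2 to 13 at 0 h (reported 9), 4 to 13 at 2 h (12) and 2 to 7 at 8 h (7) for sip53 against siControl. For E2 it ran from 1 to 2 for 8 h against 2 h in sip53 (reported 4), 0 to 1 at 2 h in siControl (1) and 1 to 3 at 8 h in siControl (3). A fit to the 2 groups alone gave 1 member at 0 h, 14 at 2 h, 0 for E2 at 2 h in siControl and 1 for E2 at 8 h in siControl, where all genes called were 284 at 0 h (reported 1397) and 2730 at 2 h (1871). Without the filter on low counts, 2 members were called for E2 at 2 h in siControl, and the cause was not tested for any of these. Of 62 single calls, 527 of 636 values with 1 library left out and 440 of 474 under the other settings kept the call, and removal of the length and GC trend ended 15. Averaged over times, that removal left 14 glycolytic genes higher and 1 lower, and the share of all genes called in that fit is not given here.

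Same-numbered samples did not deviate together (3 of 45 pairs with r above 0.1, range -0.15 to 0.21), so the numbers were not taken as pairs. With the replicate block, 9 members were called at 0 h, 12 at 2 h, 6 at 8 h and 22 over the 3 times, and the 8 h calls of PFKL (adjusted p 0.0505) and VEGFA (0.0610) were not kept.

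Depth limits ALDOC and CA9, which were not tested, and PFKFB4 and ANKRD37, whose libraries held 2 to 38 counts.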
